A study of Mus musculus with 6 samples.

Results

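The angiopoietin-Tie genes and the gene of VE-PTP were followed across the cells of mouse liver tumors: the ligands Angpt1 and Angpt2, the receptor genes Tek (which encodes Tie2) and Tie1, and Ptprb, which encodes the vascular endothelial protein tyrosine phosphatase VE-PTP. They were chosen by gene symbol, and all 5 were among the 34099 genes of the count matrices. The tumors came from male wild type C57BL/6J mice obtained at 8 weeks of age, and all of the mice carried an orthotopic liver tumor grown from H22, a murine hepatocellular carcinoma (HCC) line. The 3 control mice were left unstressed, with tumors of the same age, and the 3 stress mice had gone through chronic unpredictable mild stress, with 2 stressors a day for 21 days. Each tumor was one droplet single-cell RNA-seq library, and the authors' annotation named 10 cell types and 28 clusters among 58794 cells. A transplanted line grown in liver is the model here, so the tumor vessels and stellate cells belong to the host and the tumor cells to H22.

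Angiopoietin 1 is a secreted agonist of Tie2 that is made mainly by mesenchymal cells next to vessels, and Tie2 signaling keeps the endothelium quiescent through Akt and the inhibition of Foxo1. Angiopoietin 2 is stored and released by endothelial cells (ECs), and it acts on Tie2 as an agonist or an antagonist depending on the context. Tie1 is a partner receptor that forms complexes with Tie2 and modulates its response, and VE-PTP removes phosphate from Tie2 and from the VE-cadherin complex, so that it opposes Tie2 activity. In tumors and in the liver the balance of these genes is studied for vessel stability, leakage and sprouting.

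In the mouse genome build GRCm38 the 5 genes lie at separate places. Tek covers chr4:94739289-94874976 on the plus strand, and Tie1 covers chr4:118471191-118490061 on the minus strand of the same chromosome. Angpt2 covers chr8:18690263-18741562 on the minus strand, Ptprb chr10:116275523-116389535 on the plus strand, and Angpt1 chr15:42424723-42676977 on the minus strand. The sequence before the start is shown for the receptor genes Tek and Tie1, which were read almost only in ECs. It was taken from the RefSeq promoter table (GRCm38.p6), kept to the bases outside annotated transcripts, and written 5′ to 3′ on the strand of the gene. Capitals mark the ETS string AGGAAG, which appears as its reverse complement.
Tek, chr4:94739039-94739288, plus strand: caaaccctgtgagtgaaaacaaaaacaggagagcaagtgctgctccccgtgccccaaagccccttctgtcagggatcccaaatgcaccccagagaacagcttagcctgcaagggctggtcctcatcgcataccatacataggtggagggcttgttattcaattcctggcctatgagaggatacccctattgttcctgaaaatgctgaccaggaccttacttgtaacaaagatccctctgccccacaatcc
Tie1, chr4:118490062-118490099, minus strand: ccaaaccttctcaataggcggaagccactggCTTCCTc

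Exact strings of 3 motif families were searched on both strands of the 250 bases before each start in the table, namely AGGAAG for ETS, TGTTTAC for forkhead and AGATAA for GATA. The Tie1 window held 1 match, AGGAAG between 219 and 214 bases before the start in the table, and the Tek window held none of the 3 strings. Other forms of ETS sites were not counted, such as CGGAAG in the Tie1 stretch and GGAA, read as TTCC, in the Tek window. Across the 27025 promoters of the table, 29.2% held AGGAAG, 3.09% held TGTTTAC and 10.3% held AGATAA, so a single ETS match is common. These matches describe the letters in the window and say nothing of binding.

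The annotated cells numbered 10527, 11752 and 9256 in the control mice and 7239, 9439 and 10581 in the stress mice, with 149558935 to 187728350 unique molecular identifiers (UMIs) per mouse. The libraries shared 426 of 60941 barcode sequences. The control matrices were made with Cell Ranger 9.0.0 and the stress matrices with 7.1.0, so that stress and the version of the counting software cannot be told apart. The label of the ECs was checked with 8 markers of endothelium (Pecam1, Cdh5, Kdr, Eng, Emcn, Egfl7, Cldn5 and Tal1), and all 8 were highest in the 11433 cells labelled ECs. All 10 stellate and mural cell markers were highest in the 128 cells labelled hepatic stellate cells (HSCs), and 3 of 5 tumor cell markers were highest in the tumor cells.

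Tek, Tie1 and Ptprb were read almost only in ECs. Levels are given in CPM (UMIs of a gene per 1000000 UMIs of the same cells of a mouse). They are not scaled by gene length, so genes are not compared with each other. Since the cell types were drawn from the same expression values, their levels are a description with no test. Tek stood at 322 CPM in ECs (range 279 to 385, n = 6 mice). The next cell type, the inflammatory myeloid cells, stood at 4.51 CPM, and tumor cells at 1.18 CPM. Tie1 stood at 107 CPM in ECs (range 89.0 to 144) against 2.62 CPM in HSCs, the next type. Ptprb stood at 1756 CPM in ECs (range 1154 to 2417) against 23.8 CPM in monocytes, 17.6 CPM in HSCs and 4.67 CPM in tumor cells. ECs lay above the next cell type in 6 of 6 mice for each of these 3 genes.

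**Figure D1:**
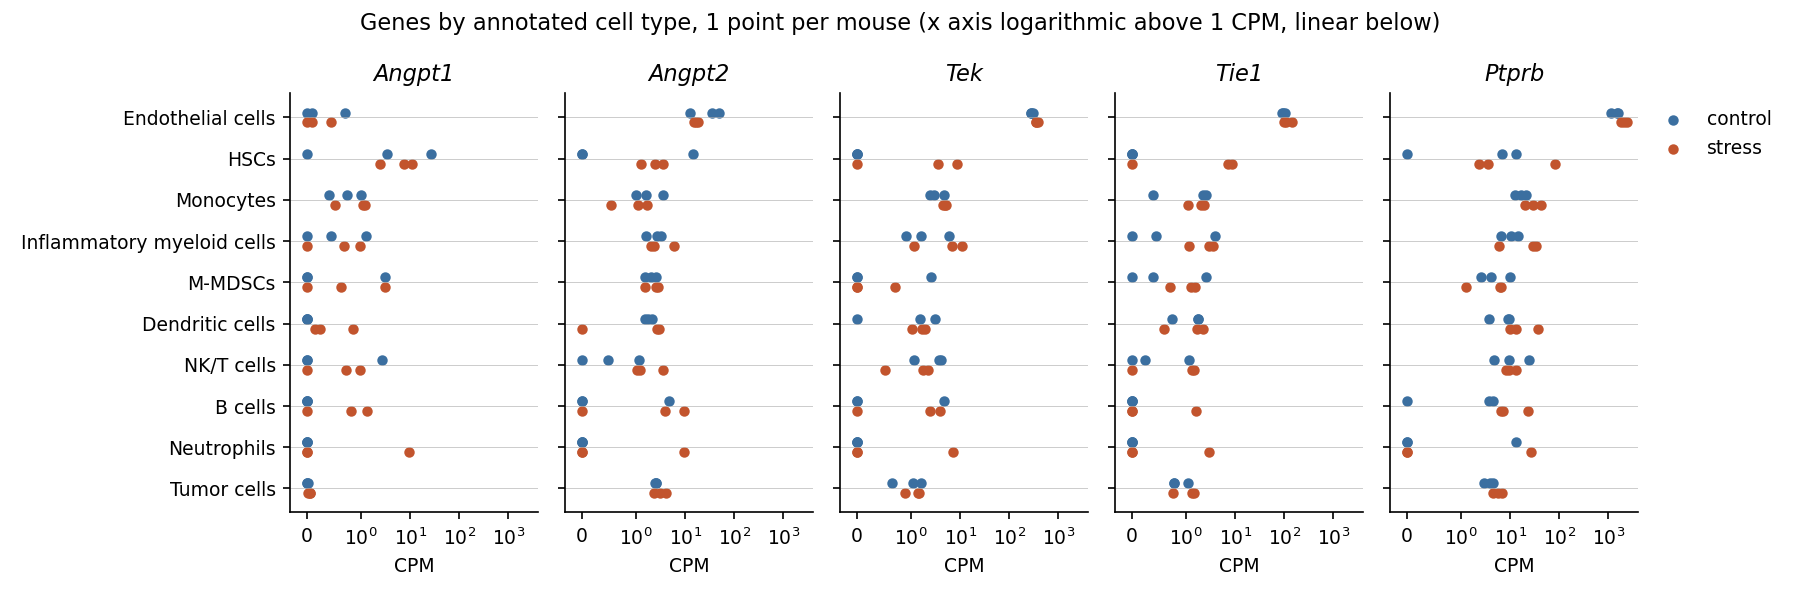
CPM of the 5 genes (x axis, logarithmic above 1 CPM and linear below) in the 10 annotated cell types (y axis), with 1 point per mouse, controls in blue and stress in orange. Tek, Tie1 and Ptprb in ECs lie far to the right of every other cell type, Angpt2 in ECs spans 12.2 to 47.8 CPM, and Angpt1 has its highest mean in HSCs.

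The 2 ligands were scarce and differed in where they were read. Angpt2 stood at 24.3 CPM in ECs (range 12.2 to 47.8), and ECs lay above HSCs, the next type at 3.59 CPM, in 5 of 6 mice. B cells, inflammatory myeloid cells and tumor cells followed at 3.01, 2.91 and 2.84 CPM and could not be ordered, since each lay above the next in 3 or 4 of 6 mice. Angpt1 had its highest mean in HSCs, at 8.28 CPM. The HSC values were 3.33, 0 and 25.9 CPM in the control mice and 2.36, 10.7 and 7.39 CPM in the stress mice, and they came from only 13 UMIs. In all, 9 of 128 HSCs held an Angpt1 UMI, or 7.03% (95% Wilson interval 3.74 to 12.8%, which covers counting error only). HSCs lay above neutrophils, the next type, in 4 of 6 mice. The HSCs also held markers of other cells. The 5 tumor cell markers summed to 197 to 2313 CPM in control and 61.6 to 419 CPM in stress HSCs, against 695 to 974 CPM in tumor cells, and the 5 hepatocyte markers to 0 to 1767 and 0 to 231 CPM, with none of either list at 0. Their part in the Angpt1 values was not tested. Angpt1 in ECs stood at 0.218 CPM, with no UMI in control mouse 3 or stress mouse 1.

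The source of the UMIs separated Angpt2 from the receptors. ECs carried 127462 of the 133075 Ptprb UMIs (95.8%), 23450 of the 24761 Tek UMIs (94.7%) and 7912 of the 8921 Tie1 UMIs (88.7%). Of the 4266 Angpt2 UMIs, ECs carried 39.8% and tumor cells 55.7%. The EC share ranged from 23.7 to 55.2% between the mice. It was above that of the tumor cells in 2 of 6 mice, with 55.2 against 43.0% in control mouse 3 and 48.3 against 44.6% in stress mouse 3. The Angpt2 level in CPM was nevertheless lower in tumor cells than in ECs, and the 29638 tumor cells had a median of 27716 UMIs per cell against 4538 in ECs. Angpt1 gave only 136 UMIs in all libraries, of which monocytes carried 26.5%, tumor cells 18.4%, NK/T cells 14.7%, ECs 13.2% and HSCs 9.56%. By mouse these shares varied widely, from 5.71 to 50% for tumor cells, 0 to 31.4% for NK/T cells and 0 to 16.7% for HSCs.

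**Figure D2:**
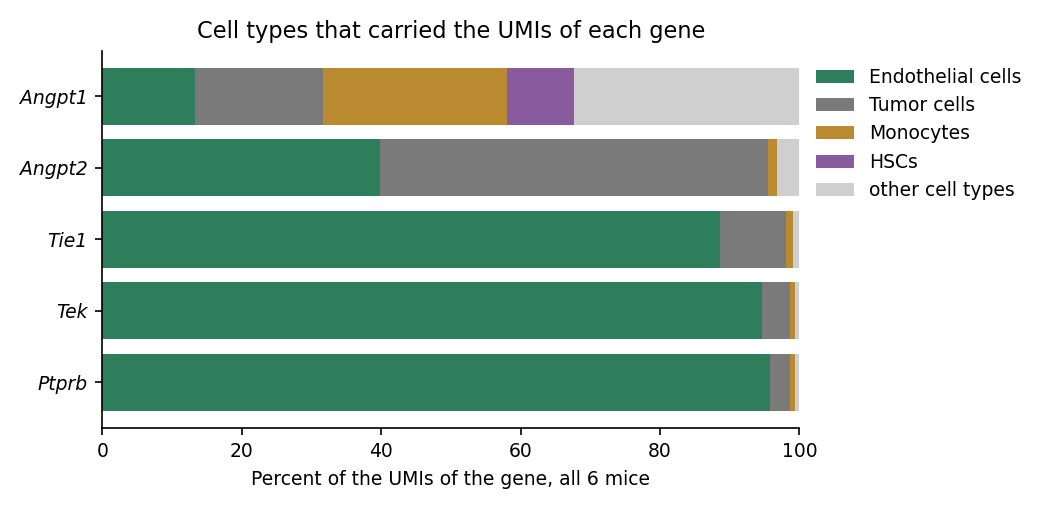
Share of the UMIs of each gene carried by each cell type (x axis, percent of the UMIs of the gene summed over the 6 mice). ECs fill 94.7% of the bar for Tek and 39.8% of that for Angpt2, where tumor cells fill 55.7%.

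Free RNA in a droplet library gives all cell types a few UMIs of an abundant gene, so the share of cells with a UMI was set beside types that should lack these genes. Each cell was thinned to 1000 UMIs, and shallower cells were left out (205 control ECs and 405 stress ECs). Of 10823 thinned ECs, 81.9% held a Ptprb UMI, 31.8% a Tek UMI, 13.3% a Tie1 UMI and 2.69% an Angpt2 UMI. Without thinning the shares were 96.7%, 73.4%, 45.5% and 9.65% of ECs. In NK/T cells, which should lack Ptprb, 1.013% of thinned cells held a Ptprb UMI (Wilson interval 0.687 to 1.49%), with median depths of 4403 UMIs in NK/T cells and 4538 in ECs. The Ptprb share of tumor cells was 0.556%, below that of the NK/T cells. For Angpt2, 0.300% of 29314 thinned tumor cells held a UMI (Wilson interval 0.244 to 0.370%) against 0.162% of NK/T cells (0.0630 to 0.416%) and 0.113% of monocytes (0.0550 to 0.234%), so the tumor cell share lay within the interval of the NK/T cells and above that of the monocytes. Tumor cells were deeper before thinning than NK/T cells and monocytes, so the thinned shares of these types are no matched background for tumor cells. Without thinning, 7.31% of tumor cells held an Angpt2 UMI, and no tumor cell held more than 4.

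The ratios of the other genes to Ptprb were higher in tumor cells than in ECs, most of all for Angpt2. For 100 Ptprb UMIs there were 1.33 Angpt2 UMIs in ECs, 5.35 in monocytes, 18.2 in NK/T cells and 62.4 in tumor cells. The tumor cell ratio was 56.6, 66.4 and 82.5 in the control mice and 68.4, 74.1 and 35.2 in the stress mice, so it stood above the EC ratio in every mouse. Tek gave 18.4 UMIs per 100 Ptprb UMIs in ECs, 18.3 in monocytes, 20.8 in NK/T cells and 25.8 in tumor cells. Tie1 gave 6.21 in ECs, 8.38 in monocytes, 8.85 in NK/T cells and 22.03 in tumor cells. Monocytic myeloid-derived suppressor cells, on only 45 Ptprb UMIs, gave 40 for Angpt2 and 22.2 for Tie1. Dendritic cells and B cells gave 19.5 each for Angpt2. For Tek and Tie1 too, the tumor cell ratio stood above the EC ratio in 6 of 6 mice. The part of free RNA in these ratios was not tested. Among the tumor cell clusters, Angpt2 ranged from 0.106 CPM in cluster 21 to 4.63 CPM in cluster 17, and 8 of the 10 clusters had means between 2.15 and 3.89 CPM. In ECs 317 cells held at least 2 Angpt2 UMIs, the highest cell held 12, and the top 1% of ECs carried 29.3% of the Angpt2 UMIs. The top 1% carried 5.74% of the Tek UMIs in ECs. In tumor cells the top 1% carried 21.3% of the Angpt2 UMIs and 38.3% of the Tek UMIs. The part of low counts in these shares was not tested.

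Within the ECs, the receptors and the phosphatase followed one order of clusters and Angpt2 another. The annotation split the ECs into 7 clusters, of which cluster 2 held 4789 cells, cluster 8 2847, cluster 15 1259, cluster 16 1247, cluster 18 989, cluster 24 229 and cluster 27 73. Tek was highest in cluster 18 at 565 CPM (range 456 to 667), then in cluster 2 at 466 CPM and cluster 8 at 389.8 CPM, and each of these 3 lay above the next in 6 of 6 mice. It was lowest in cluster 16, at 80.9 CPM. Ptprb had the same ends of the order, with 2763 CPM in cluster 18, 2574 CPM in cluster 2, 2141 CPM in cluster 8 and 446 CPM in cluster 16. Clusters 18 and 2 were not separated for Ptprb (4 of 6 mice) or for Tie1, at 158 and 156 CPM (3 of 6 mice).

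Angpt2 was low in cluster 18, where Tek was highest. It stood at 39.2 CPM in cluster 2 (range 12.1 to 80.7) and 36.5 CPM in cluster 8 (range 20.6 to 62.3), which were not separated (4 of 6 mice). In cluster 18 it stood at 5.10 CPM (range 0.699 to 11.7), and after thinning 3 of 979 cells held an Angpt2 UMI (0.306%) against 3.15% in cluster 2 and 3.58% in cluster 8. Clusters 15 and 24 followed at 20.6 and 19.98 CPM with ranges of 0 to 81.1 and 5.90 to 60.4, too wide to place them. The summed level of 6 sinusoidal markers was 7827 CPM in cluster 2, 6134 CPM in cluster 8 and 3871 CPM in cluster 18, and the part of sinusoidal identity in the order was not tested.

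**Figure D3:**
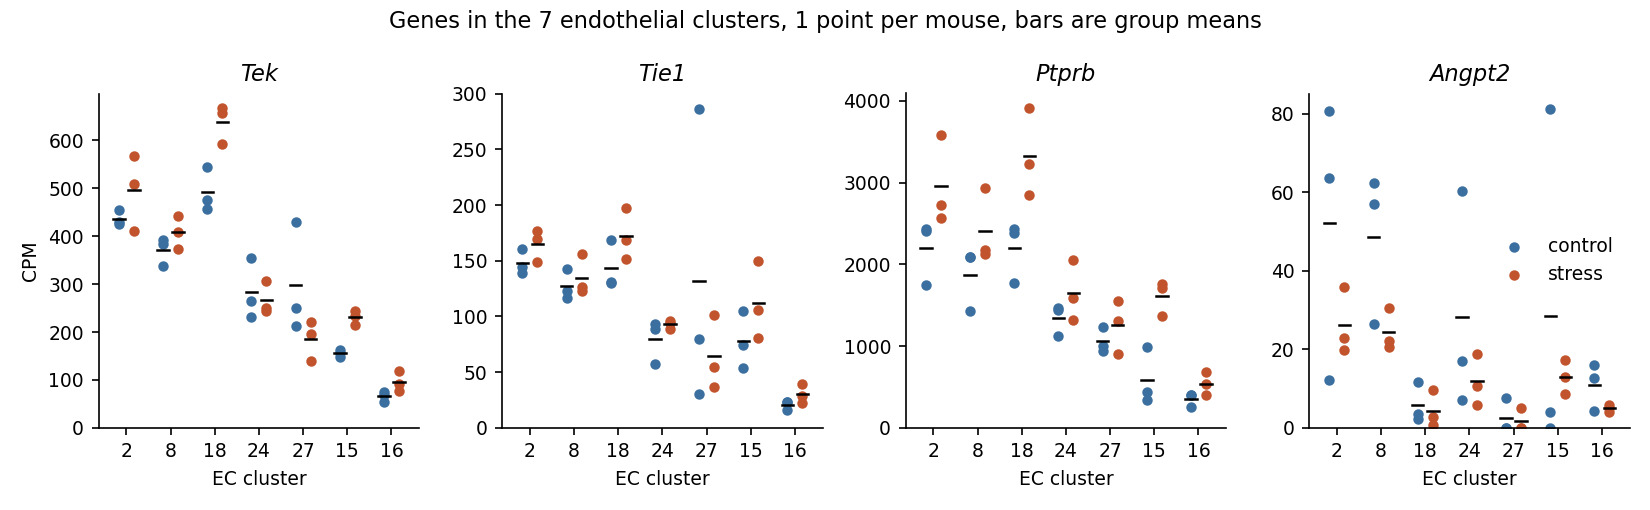
CPM of Tek, Tie1, Ptprb and Angpt2 (y axis) in the 7 EC clusters (x axis), 1 point per mouse with controls in blue and stress in orange, and black bars for the group means. Cluster 18 has the highest mean Tek (565 CPM) and a mean Angpt2 of 5.10 CPM, and cluster 16 has the lowest mean Tek, Tie1 and Ptprb.

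Clusters 15, 16, 24 and 27 stood apart by depth or by the markers they held. Cluster 15 was shallow, with median depths of 858 to 1456.5 UMIs per cell, and its share of ECs was 1.73, 4.94 and 5.35% in the control mice and 11.3, 23.1 and 17.7% in the stress mice. In cluster 16 the 5 tumor cell markers summed to 491 to 593 CPM in control and 456 to 714 CPM in stress mice, none of them at 0, while the 8 endothelial markers summed to 699 to 884 and 752 to 1060 CPM. The endothelial sum over all ECs was 3182 to 3566 CPM in control and 3449 to 4305 CPM in stress mice. Cluster 16 gave 40.3, 30.6 and 33.7% of the EC UMIs in the control mice and 33.8, 27.5 and 17.4% in the stress mice, so the fold changes of Tek, Tie1 and Ptprb over all ECs are given with and without it. Angpt2, the ratios and the shares of cells are given with it only. In cluster 24 the 5 neutrophil markers summed to 3194 to 6526 CPM in control and 968 to 5957 CPM in stress mice, none of them at 0, against 46.3 to 242 and 36.2 to 303 CPM over all ECs. In cluster 27, which was too small to be tested, the 5 NK/T cell markers summed to 1127 to 2006 CPM in control and 1013 to 1783 CPM in stress mice, with Klrb1c at 0, against 6.37 to 44.4 and 12.1 to 30.6 CPM over all ECs. The part of these markers in the values of the 2 clusters was not tested.

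The comparison of stress with control asked whether the EC programme for Tie signaling differed between the groups. Ptprb and Tek were higher in the ECs of all 3 stress mice than in those of any control mouse, Tie1 and Angpt2 overlapped, and none of the 4 genes passed the test over all genes. The test was edgeR's quasi-likelihood test on UMIs summed per mouse, with Benjamini-Hochberg adjustment over 14090 genes and a threshold of 0.05, and 30 genes passed, which is 0.213% of those tested. Of the 4 genes, 2 had an unadjusted p under 0.05 in edgeR (Tek and Ptprb, both higher with stress), where 7.22% of all genes had one with stress higher and 8.43% with stress lower. DESeq2 called 0 of the 4, and 3 of them (Tek, Ptprb and Angpt2) had an unadjusted p under 0.05 there, as did 13.9% of the genes it tested. Angpt1 had too few UMIs in ECs to be tested.

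Tek, the angiopoietin receptor gene, stood at 279, 298 and 279 CPM in the control ECs and at 385, 347 and 346 CPM in the stress ECs. The groups did not overlap, with means of 285 ± 10.9 and 359 ± 22 CPM (SD, n = 3 each). The edgeR log2 fold change was 0.31 (SE 0.10, adjusted p = 0.236). For comparison, 12.5% of all genes tested in ECs had stress values wholly above the control values. Without cluster 16 the log2 fold change was 0.16 (edgeR adjusted p = 0.664), and the groups overlapped, at 421, 405 and 382 CPM in control and 521, 450.4 and 399.6 CPM in stress mice. In clusters 2, 8 and 18 alone, a setting chosen after the data were seen, it was 0.19, and the groups overlapped again.

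Ptprb stood at 1492, 1154 and 1598 CPM in control ECs and 2417, 1830 and 2044 CPM in stress ECs. The groups did not overlap, with means of 1415 ± 232 and 2097 ± 297 CPM (SD, n = 3 each). The edgeR log2 fold change was 0.54 (SE 0.18, adjusted p = 0.245), and a fit with replicate number as a blocking term gave 0.55 (edgeR adjusted p = 0.0842). It was 0.40 without cluster 16 and 0.42 in clusters 2, 8 and 18 alone, without overlap of the groups in either setting. Set against the summed UMIs of the 8 endothelial markers, also a setting chosen after the data were seen, Ptprb was 0.448, 0.363 and 0.448 of that sum in control ECs and 0.692, 0.531 and 0.475 in stress ECs, a log2 difference of 0.42 (two-sided exact permutation test, p = 0.1). That p is the smallest that 3 against 3 mice allow. The same quantity for Tek gave a log2 difference of 0.18 (exact permutation test, p = 0.3).

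Tie1 stood at 94.7, 101 and 89.0 CPM in control ECs and at 109.6, 101 and 144 CPM in stress ECs. The groups overlapped, and the edgeR log2 fold change was 0.29 (SE 0.15, adjusted p = 0.388). It was 0.12 without stress mouse 3, the mouse with the highest Tie1 level, and 0.13 without cluster 16.

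Angpt2, the ligand that ECs themselves make, varied more between the control mice than between the stress mice. It stood at 35.6, 12.2 and 47.8 CPM in control ECs and at 18.5, 15.3 and 16.5 CPM in stress ECs, so control mouse 2 lay below all stress mice and the other controls above them. The means were 31.9 ± 18.1 and 16.8 ± 1.63 CPM (SD, n = 3 each), with an edgeR log2 fold change of -0.95 (SE 0.44, adjusted p = 0.353). Leaving out control mouse 2 gave -1.34 (edgeR adjusted p = 0.0440), where 46 of 14428 genes passed. Leaving out control mouse 3 gave -0.52 (edgeR adjusted p = 0.654), where 6 of 14502 genes passed. The call therefore turned on 1 library.

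**Figure D4:**
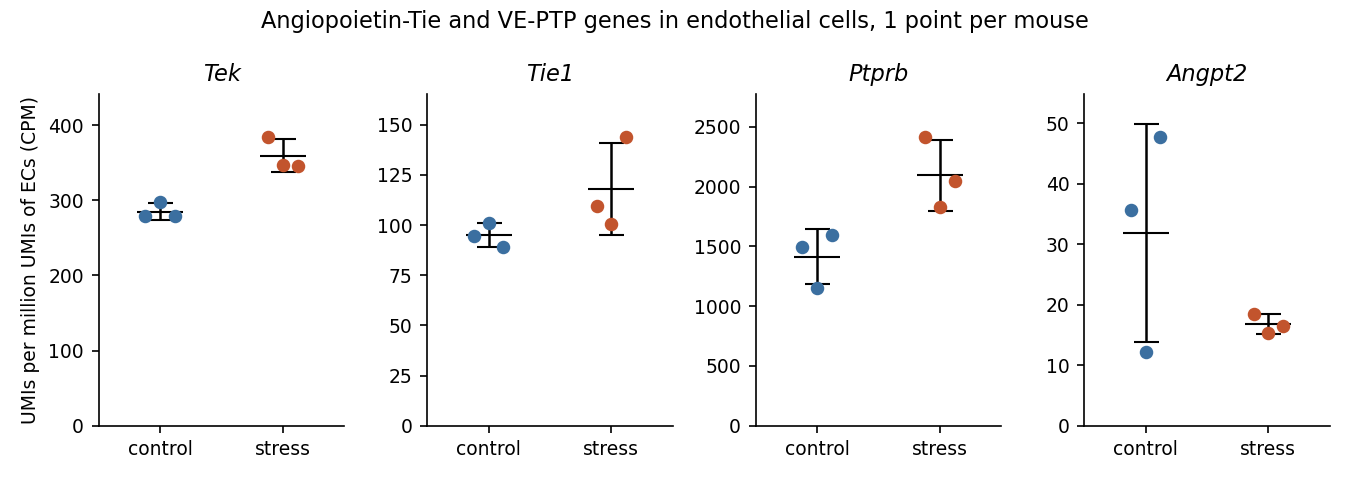
CPM of Tek, Tie1, Ptprb and Angpt2 in all ECs (y axis) for control and stress mice (x axis), with 1 point per mouse and the group mean ± SD in black. The stress points lie above the control points for Tek and Ptprb, and control mouse 2, at 12.2 CPM, lies below the stress points for Angpt2.

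Some other markers differed between the groups in ECs, and others overlapped. The 8 endothelial markers had a median edgeR log2 fold change of 0.24, against -0.01 over all genes tested, and none passed. They ranged from -0.20 (Cdh5) to 0.51 (Kdr), with Pecam1 at -0.08. The 6 sinusoidal markers summed to 3872 to 5180 CPM in control and 5044 to 5349 CPM in stress ECs, with overlap. The 7 monocyte and macrophage markers summed to 778 to 1051 CPM in control and 1208 to 1410 CPM in stress ECs, without overlap. None of the 7 was at 0, and 1 of them did not overlap on its own, the mannose receptor gene Mrc1, which sinusoidal endothelium also makes and which was named after its values were seen. The 4 progenitor markers (Kit, Cd34, Gata2 and Hlf) summed to 303 to 446 CPM in control and 522 to 581 CPM in stress ECs, without overlap and with none at 0. Their sums did not overlap in any of clusters 2, 8, 15, 16, 18 and 24 either, and most of the sum was Kit, which stood at 255 CPM in control and 458 CPM in stress ECs. Gata2 of this list went the other way, with an edgeR log2 fold change of -0.26 in ECs. The 5 tumor cell markers summed to 195 to 274 CPM in control and 104 to 279 CPM in stress ECs, with overlap. The part of these markers in the values of Tek and Ptprb was not tested beyond the settings given.

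The ratios of the genes and the shares of cells gave no difference that the design could call. The Angpt2 to Tek ratio in ECs was 0.128, 0.0410 and 0.172 in control and 0.0482, 0.0441 and 0.0476 in stress mice (log2 difference -1.05, exact permutation p = 0.4, adjusted over 3 ratios 0.6). It was -1.67 without control mouse 2 and -0.64 without control mouse 3. The Ptprb to Tek ratio was 5.34, 3.88 and 5.74 in control and 6.28, 5.27 and 5.91 in stress mice (log2 difference 0.24, exact permutation p = 0.3), and the difference was 0.07 without control mouse 2. The ratio was higher with stress in 3 of 3 same-numbered pairs, where an exact paired permutation test, added after the data were seen, gave p = 0.25, the smallest that 3 pairs allow. The Tie1 to Tek ratio was 0.333 ± 0.0117 and 0.330 ± 0.0745 (SD, n = 3 each; exact permutation p = 1). A ratio of the ligands to each other was not formed, since ECs of a mouse in each group had no Angpt1 UMI.

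After thinning to 1000 UMIs the share of ECs with a Ptprb UMI was 81.1, 73.1 and 82.9% in control and 89.3, 83.2 and 84.0% in stress mice, 6.48 points higher (two-sided exact permutation test, p = 0.1, adjusted over the 5 genes 0.333). Without thinning, when 96.7% of ECs held a Ptprb UMI, the difference was -0.100 points, and it was 10.2 after thinning to 500 UMIs, 4.01 after thinning to 2000 UMIs and 3.50 without control mouse 2. The share with an Angpt2 UMI was 4.59, 1.54 and 5.31% in control and 1.71, 1.65 and 1.84% in stress mice (exact permutation p = 0.4). That difference of -2.08 points was -3.22 without control mouse 2 and -1.33 without control mouse 3. Tek and Tie1 differed by 4.49 and 1.61 points (exact permutation p = 0.2 each). The Tek difference was 1.76 points without stress mouse 1 and 2.30 after thinning to 500 UMIs, and Angpt1 was held by 2 of the thinned ECs.

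By cluster, Ptprb had stress values wholly above control values in clusters 2, 8, 15, 16 and 18, and Tek in clusters 15, 16 and 18. The clusters share the same mice, and they are not replicates. The share of all tested genes with that pattern was 11.8% in cluster 2, 8.18% in cluster 8, 9.4% in cluster 15, 11.6% in cluster 16 and 11.8% in cluster 18. None of the genes passed edgeR's test in any cluster, where 0.196%, 0.278%, 0.153%, 0.636%, 1.02% and 0.136% of the genes tested passed in clusters 2, 8, 15, 16, 18 and 24. Some marker sums also differed without overlap. In cluster 18 the endothelial markers summed to 3877 to 4306 CPM in control and 4557 to 4933 CPM in stress mice. The tumor cell markers there summed to 92.8 to 142 and 27.9 to 75.2 CPM. Monocyte marker sums were wholly higher with stress in clusters 2, 8, 15, 16 and 18. The part of these markers in the values was not tested.

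Among the EC clusters, the highest fold change of the 4 genes was that of Ptprb in the shallow cluster 15. It stood at 438, 339 and 983 CPM in control mice and 1753, 1373 and 1713 CPM in stress mice, and only control mouse 3 came near the stress values. The control values came from 34, 104 and 81 cells with 59, 82 and 206 Ptprb UMIs. Those of the stress mice came from 176, 450 and 414 cells with 712, 1122 and 1199 Ptprb UMIs. The edgeR log2 fold change was 1.52 (SE 0.35, adjusted p = 0.109). It was 1.64 with the replicate block (edgeR adjusted p = 0.0109), where 192 of 5226 genes passed. Leaving out 1 mouse gave 1.25 to 2.11, with edgeR adjusted p of 0.00992 to 0.371. The highest value was that without control mouse 3, where 9 of 6467 genes passed. The endothelial markers of this cluster summed to 1521 to 3888 CPM in control and 3132 to 4317 CPM in stress mice. The tumor cell markers summed to 310.1 to 438 CPM in control and 98.6 to 308 CPM in stress mice, without overlap. The monocyte markers summed to 312 to 1040 CPM in control and 1093 to 1652 CPM in stress mice, and the progenitor markers to 156 to 239 and 307 to 400.1 CPM, both without overlap. The 5 erythroid markers summed to 0 to 4.77 CPM in control and 0 to 3231 CPM in stress mice. The part of these markers in the difference was not tested. Relative to the endothelial markers the log2 difference of Ptprb was 1.03 (exact permutation p = 0.1) and that of Tek was -0.01.

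In cluster 16 the Ptprb log2 fold change was 0.59 (edgeR adjusted p = 0.284). It passed with the block (0.59, edgeR adjusted p = 0.0428), where 230 of 11632 genes passed. In the other clusters Ptprb gave 0.39 in cluster 2 (edgeR adjusted p = 0.466), 0.37 in cluster 8 (edgeR adjusted p = 0.624) and 0.58 in cluster 18 (edgeR adjusted p = 0.180). Leaving out 1 mouse gave Ptprb 0.23 to 0.50 in cluster 2, 0.17 to 0.48 in cluster 8 and 0.36 to 0.77 in cluster 16. Tek gave 0.15 in clusters 2 and 8 and 0.36 in cluster 18, with an edgeR adjusted p of 0.265 in the last. With 1 mouse left out, Tek gave 0.04 to 0.28 in cluster 2 and 0.05 to 0.22 in cluster 8. Angpt2 gave -1.03 in cluster 2, -1.0 in cluster 8 and -1.14 in cluster 16, and in each it passed only without control mouse 2 (edgeR adjusted p = 0.0372, 0.0204 and 0.0323). Without that mouse 169 of 11251, 137 of 10516 and 194 of 11981 genes passed in clusters 2, 8 and 16. The same step gave Angpt2 -1.52 to -0.54 in cluster 2, -1.32 to -0.75 in cluster 8 and -1.54 to -0.78 in cluster 16 over the mice left out.

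The difference in the stress effect between clusters was tested with the interaction of group and cluster against cluster 2, with the mouse as a term. None of the genes passed in any of the 5 clusters compared, where 0.454%, 0.0824%, 0.0238%, 0.018% and 0.0902% of the genes tested passed in clusters 8, 15, 16, 18 and 24. The nearest was Ptprb in cluster 15, with an interaction of 1.28 on the log2 scale (SE 0.27, edgeR adjusted p = 0.0610), and Tek there gave 0.53 (edgeR adjusted p = 0.553). In cluster 8 the interaction of Tie1 was -0.04, that of Angpt2 -0.03 and that of Ptprb -0.02.

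**Figure D5:**
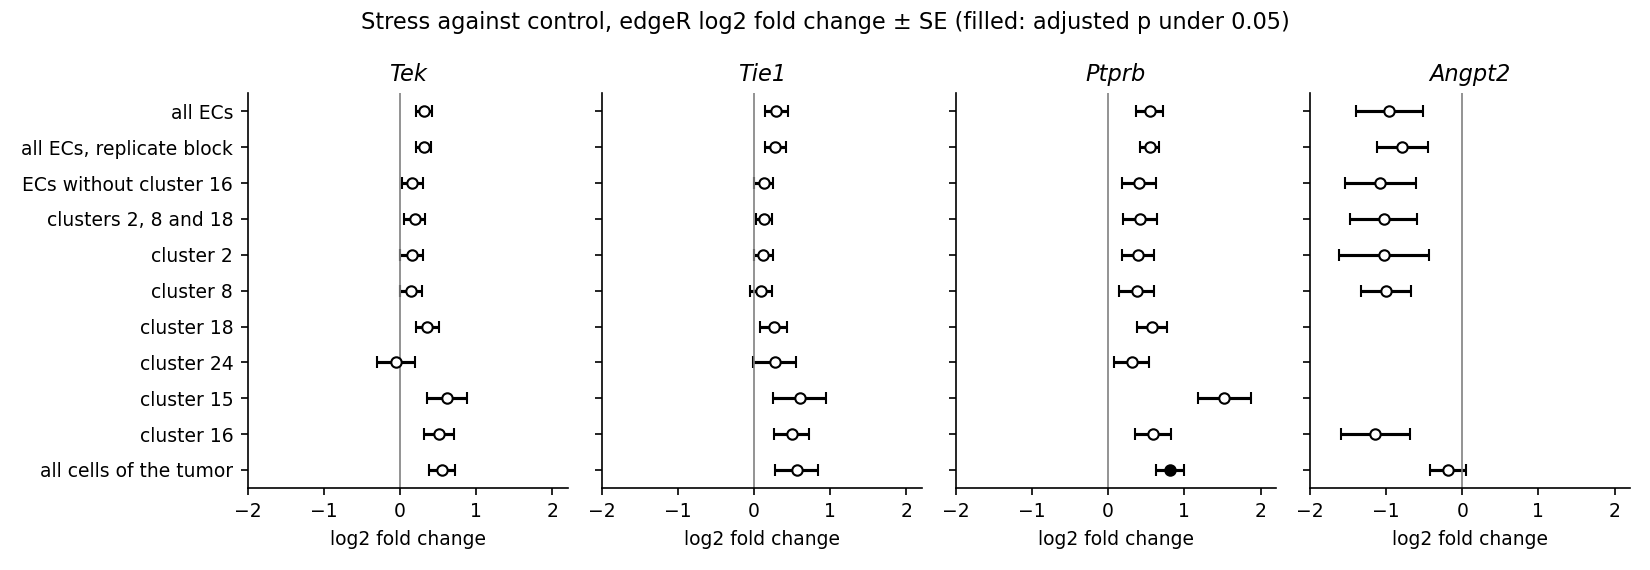
Log2 fold change of stress against control from edgeR (x axis, with bars of ± 1 SE) for Tek, Tie1, Ptprb and Angpt2 in sets of cells (y axis), filled where the adjusted p was under 0.05. The filled point is Ptprb over all cells of the tumor, at 0.81, and the Angpt2 points of ECs lie near -1 with wide bars.

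Over all cells of the tumor, Ptprb rose with stress. It stood at 91.8, 85.3 and 95.9 CPM in control and at 165, 138 and 229 CPM in stress tumors, without overlap. The edgeR log2 fold change was 0.81 (SE 0.18, adjusted p = 0.0428), in a comparison where 10.1% of 20601 genes passed and 26.4% had stress values wholly above control values. It did not pass once any 1 of the 6 mice was left out, with log2 fold changes of 0.62 to 0.97 and edgeR adjusted p of 0.0707 to 0.139. A higher number of ECs, more RNA per EC and a higher Ptprb level within ECs cannot be told apart in such sums. ECs were 18.6, 17.9 and 16.4% of the cells in control and 21.5, 20.7 and 22.1% in stress mice, and they gave 5.86, 7.0 and 5.79% of the UMIs in control and 6.62, 7.20 and 10.7% in stress mice. Over all cells the 8 endothelial markers had a median edgeR log2 fold change of 0.45 (range 0.11 to 0.80), against 0.04 over all genes tested. None of these markers passed.

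The other genes did not pass over all cells of the tumor. Tek stood at 17.5, 22.5 and 16.8 CPM in control and 26.4, 26.6 and 38.9 CPM in stress tumors, without overlap, with a log2 fold change of 0.55 (SE 0.17, edgeR adjusted p = 0.0836). Tie1 gave 0.56 (edgeR adjusted p = 0.228), with groups that overlapped and a highest value of 16.9 CPM in stress mouse 3, without which it gave 0.16. Angpt2 stood at 4.21 ± 0.972 CPM in control and 4.10 ± 0.510 CPM in stress tumors (SD, n = 3 each), with a log2 fold change of -0.19 (edgeR adjusted p = 0.596), which was -0.39 without control mouse 2, -0.06 without control mouse 3 and -0.09 without stress mouse 3. Angpt1 gave 0.76 with an SE of 0.70, at levels of 0.0320 to 0.308 CPM. It gave 0.18 without stress mouse 3, 0.32 without control mouse 1 and 1.68 without control mouse 2.

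Outside the ECs the genes were at low levels and none passed the test in the cell types where they could be tested. In tumor cells Angpt2 stood at 2.54, 2.56 and 2.46 CPM in control and 3.03, 4.12 and 2.35 CPM in stress mice. The groups overlapped, and the log2 fold change was 0.19 (edgeR adjusted p = 0.549), in a comparison where 21.4% of genes passed. Ptprb there gave 0.41 (edgeR adjusted p = 0.163). In monocytes Ptprb stood at 12.8, 16.6 and 21.3 CPM in control and 42.0, 20.4 and 29.7 CPM in stress mice. These overlapped, and the log2 fold change was 0.88 (edgeR adjusted p = 0.328; 0.122% of genes passed). In dendritic cells the Ptprb groups did not overlap, as in 8.28% of the genes tested there, and the log2 fold change was 1.32 (edgeR adjusted p = 0.222; 2.64% of genes passed). In inflammatory myeloid cells Tek gave 1.57 and Ptprb 1.39 (edgeR adjusted p = 0.994 each), where edgeR called 0% of 9219 genes and 365 had an unadjusted p under 0.05. With 1 mouse left out, Ptprb gave 0.72 to 1.72 in dendritic cells and 0.67 to 1.81 in inflammatory myeloid cells. In NK/T cells Ptprb gave 0.01 (edgeR adjusted p = 0.999; 0.857% of genes passed). After thinning, a Ptprb UMI was held by 1.52% of monocytes, 1.25% of dendritic cells and 1.24% of inflammatory myeloid cells. The last 2 lay within the interval of the NK/T cells, and the monocytes lay just above it, with an interval of their own of 1.25 to 1.86%.

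The other genes of the pathway were read from 5 lists with 65 genes besides the 5, of which 59 were tested in ECs. None passed edgeR's test in ECs. DESeq2 called 1 of the 58 it tested, Rac1, where it called 2.77% of all genes. In edgeR 8 of the 59 had an unadjusted p under 0.05 with stress higher and 5 with stress lower, beside the 7.22% and 8.43% of all genes. Of the 25 genes of Tie signaling, 24 were tested, with a median log2 fold change of -0.08. Akt1, the kinase below Tie2, gave -0.13, the PI3-kinase subunit Pik3r1 0.10, and Nos3, the endothelial nitric oxide synthase, -0.20. The adaptors Dok2 and Grb14, which bind Tie2, gave -0.12 and -0.93 (SE 0.36, edgeR adjusted p = 0.288), and Tnip2, an inhibitor of NF-kappaB that acts below Tie2, gave -0.13. The list had 5 genes with an unadjusted p under 0.05, of which 4 were lower with stress. Besides Grb14 these were Akt2 (-0.38), Pik3r2 (-0.64) and Rac1 (-0.40), and Nck1 (0.32) was higher. They were named after their values were seen.

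The junction and coreceptor list had 9 of 10 genes tested, with a median of -0.04. Cdh5, which encodes VE-cadherin, gave -0.20 (edgeR adjusted p = 0.580), and the integrin genes Itgb1 and Itga5, whose products bind angiopoietins or Tie2, gave -0.02 and -0.13. Svep1, a secreted protein that binds Tie1, was not tested in ECs. The list had 3 genes with an unadjusted p under 0.05, Itgb5 (-1.02), which was lower with stress, and Kdr (0.51) and Plxnd1 (0.39), which were higher, all named after their values were seen. The transcription list had 14 of 14 genes tested and a median of 0.03. Foxo1, the factor held in check by Tie2 signaling and an activator of Angpt2, gave -0.04 (SE 0.09, edgeR adjusted p = 0.835). Erg, an ETS factor of endothelium, gave 0.42 (SE 0.13, edgeR adjusted p = 0.214), and Klf2 and Gata2 gave -0.24 and -0.26. Erg and Elf1 (0.25), the latter named after its values were seen, were the 2 genes of the list with an unadjusted p under 0.05.

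The tip cell list, genes of sprouting endothelium among which Angpt2 is often counted, had 10 of 10 genes tested and a median of 0.12. Esm1 gave -0.80 (SE 0.38, edgeR adjusted p = 0.367) and Apln -0.27. Nid2 (1.30) and Adm (0.73), both higher with stress and named after their values were seen, were the 2 genes of the list with an unadjusted p under 0.05. Among the other ligands of the angiopoietin family, 3 of 7 were tested, and Angptl4, a secreted inhibitor of lipoprotein lipase, gave 2.16 (SE 0.48, edgeR adjusted p = 0.133). Over all cells of the tumor, 6 of the 64 genes of the lists that were tested passed. Tumor cells gave 846996729 of the 1024315175 UMIs in these sums. The cell types behind the 6 differences were not tested. The signaling genes Akt2 and Pik3r2, the transcription gene Foxo3 and the tip cell gene Apln were lower with stress, and Svep1 of the coreceptor list and Nid2 of the tip cell list were higher. Of the 6, 4 passed without control mouse 2 (Nid2 and Apln did not), and 0 passed once any other mouse was left out, where at most 173 of all genes passed. These were named for passing edgeR's test, where 6.43% of all genes passed with stress higher and 3.66% with stress lower.

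In clusters 2 and 8, the 879 ECs with an Angpt2 UMI were set beside the 6757 without one, as a description with no test. Cluster 2 gave 510 of the former and 4279 of the latter. Median depths were 5011 and 4674 UMIs per cell. Of the 10 tip cell genes, 7 were higher in the cells with Angpt2 in at least 5 of 6 mice, as were 13.1% of all 12587 genes besides Angpt2 with at least 50 UMIs in these clusters. The sprouting marker Esm1, a secreted proteoglycan, stood at 135 CPM in the cells with Angpt2 and 29.1 CPM in those without, higher in 6 of 6 mice. The apelin gene Apln stood at 12.0 and 0.724 CPM, the basement membrane gene Nid2 at 23.8 and 2.04 CPM, and the growth factor gene Pgf at 12.8 and 0.767 CPM, each higher in 5 of 6 mice. Dll4, a Notch ligand, stood at 127 and 90.1 CPM. Plvap stood at 321 and 341 CPM (higher in 2 of 6 mice) and Mcam at 270.1 and 272 CPM (3 of 6). Tek was lower in the cells with Angpt2 in 6 of 6 mice (340.4 and 451 CPM), as was Ptprb (1994 and 2467 CPM), and Tie1 was lower in 5 of 6 (128 and 149 CPM), where 17.7% of those genes were lower in at least 5 of 6 mice. Within cluster 2 and within cluster 8, Tek and Ptprb were again lower in 6 of 6 mice. Esm1 was higher in 6 of 6 mice in cluster 2 and 5 of 6 in cluster 8, while Apln was higher in 5 of 6 in cluster 2 and 2 of 6 in cluster 8. Nid2 was higher in 5 of 6 and 4 of 6 mice, and Pgf, whose SD over mice was 22.9 CPM in the cells with Angpt2, in 2 of 6 and 3 of 6.

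Across the 28 clusters each receptor gene was followed closely by other genes. The measure was the Pearson correlation of log2(CPM + 1), over the mean of the 6 mice in each cluster and among 14863 genes, and the clusters share libraries and differ in depth, so it is a description. Tek was most like F8, the coagulation factor gene (0.996), followed by Adgrl4, Emcn, Aqp1 and Myct1. Tie1 was most like Robo4 (0.993), Emcn, Ushbp1, Tpbgl and Sox18. Ptprb was most like the water channel gene Aqp1 (0.998), Jam2, Cyyr1, Adgrl4 and Prex2. Tek and Ptprb correlated at 0.993 with each other, and Tek and Tie1 at 0.983.

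The ligands had no such close companions. Angpt2 correlated with Tek at 0.774, and its nearest genes were Sec1 (0.895), Gm54798, Lpin3, Lrrc70 and Mdfi. Angpt1 correlated with the other 4 genes between -0.16 and -0.07, and its nearest genes were Ces1d (0.881), Cxadr, Cldn3, Pdzk1ip1 and the collagen gene Col1a1 (0.849), on a gene of 136 UMIs.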

How the data were processed

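The deposited matrices hold raw UMI counts per gene and cell, made by the authors with Cell Ranger (9.0.0 for control, 7.1.0 for stress libraries, per the file headers) on mm10; the gene annotation is not given in the sources used here. The authors removed doublets and low-quality cells, then clustered and named the cells in Seurat, and their deposited annotation was used as it stands. Here counts of annotated cells were summed per mouse over each cell type or EC cluster with at least 5 cells in every mouse. edgeR 4.0.16 (R 4.3.3; filterByExpr, TMM, quasi-likelihood test, Benjamini-Hochberg over all genes, threshold 0.05) compared stress with control, and the pipeline was tested on simulated data. Alternatives were DESeq2 1.42.0, other normalization, no filter, a replicate block and leaving out each mouse. Exact permutation tests were two-sided. Deviations of same-numbered mice correlated at 0.671, 0.478 and 0.104 in ECs. Control mouse 3 correlated more with stress mouse 1 (0.224), and no source says that same-numbered mice shared a batch. Results with the block or with pairs are therefore alternatives only. The genes, lists and settings were chosen with earlier results of these data known. Named genes were the 5 genes, a fixed list of pathway genes, pathway genes past the threshold, the 5 nearest genes by correlation, and a few genes that the text marks as named after their values were seen.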

Additional observations from a re-analysis of the deposited data

How the results depend on the processing

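Of 334 alternative fold changes of the 5 genes over 41 comparisons, 309 kept their direction and their side of the threshold, 12 changed direction, 7 passed newly and 6 no longer passed. The 334 include the log2 differences of 4 genes relative to the endothelial markers in ECs. Their exact permutation tests could not go below 0.1, so these values could change direction but could not pass. In ECs edgeR called 30 genes, against 131 with the replicate block, 107 without the filter on low counts and 375 by DESeq2, and in the whole tumor it called 2080, against 3431 with the block and 3927 by DESeq2. With the block, 1 gene of the 5 (Ptprb) passed in clusters 15 and 16, where 192 of 5226 and 230 of 11632 genes passed. No other call of the 5 genes in ECs or their clusters changed with it. With same-numbered mice as pairs, exact permutation tests of the ratios and shares gave p of 0.25 to 1, and 3 pairs allow no p below 0.25. In the whole tumor the same-number correlations were 0.813, 0.529 and 0.0762, and Ptprb gave 0.79 with the block. Leaving out a mouse gave 3 to 46 genes in ECs and 0 to 2496 in the whole tumor, 0 to 1 of the 5 genes in ECs and in clusters 2, 8, 15 and 16, and 0 of them in the whole tumor, where Ptprb gave 0.62 to 0.97. The same step gave -1.34 to -0.52 for Angpt2 in ECs, -0.21 to 0.062 for the Tie1 to Tek ratio, -0.18 to 0.12 for Tek in cluster 24, -0.0108 to 0.16 for Tie1 in cluster 8, -0.32 to 0.21 for Tie1 in monocytes, -0.29 to 0.47 for Ptprb in NK/T cells, and -0.0018 to 0.37 for Angpt2 and -0.27 to 0.32 for Tek in tumor cells. The difference in the share of ECs with an Angpt1 UMI gave -0.0166 to 0.0150 points in that step and 0.0340 after thinning to 2000 UMIs, and that of Ptprb gave -0.100 without thinning. The causes were not tested. With 3 mice a group, no exact permutation test could go below 0.1, and Angpt1 was too scarce to be tested in any cell type.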

Other observations

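Barcodes outside the annotation entered no comparison. Tek there stood at 3.50 to 11.6 CPM in control and 4.13 to 10.9 CPM in stress libraries, and Ptprb at 15.5 to 45.7 and 30.2 to 58.0 CPM, with overlap.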
